A study of Mus musculus with 8 samples.

Results

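The Hox genes encode homeodomain transcription factors and lie in 4 clusters, Hoxa, Hoxb, Hoxc and Hoxd, each on its own chromosome. Their transcripts were followed in murine lines of epithelioid hemangioendothelioma (EHE), a malignancy of blood vessel endothelium whose human form is usually driven by a WWTR1-CAMTA1 fusion. The members are 38 of the 39 mouse Hox genes, chosen by symbol and cluster and not by their values, out of 55401 gene identifiers in the count table. By cluster there are 10 genes of Hoxa, 10 of Hoxb, 9 of Hoxc and 9 of Hoxd.

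Polyadenylated RNA was sequenced from 2 libraries of line EHE26, 3 of line EHE17 and 3 of line EHE6. The labels give the line and a replicate number, and no genotype, treatment, age, tissue of origin or number of clones. They do not say that replicates came from separate cultures, and the spread behind each p-value may therefore be technical. The labels state no question beyond the lines themselves, and the lines were compared in pairs.

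Within a cluster the genes keep the same order on every chromosome, and genes at matching positions are paralogues that share a group number from 1 to 13. In the embryo, low-numbered genes are switched on first and furthest forward, and high-numbered genes later and further back, so that the set of active Hox genes marks a cell's position along the body axis. Adult endothelial and mesenchymal cells keep much of this positional pattern. Polycomb complexes hold silent Hox chromatin off, Trithorax complexes keep active Hox chromatin on, and Pbx and Meis proteins bind DNA together with Hox proteins.

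In GENCODE release M21 (GRCm38) the members of Hoxa span chr6:52162417-52260880 on the minus strand. The members of Hoxb span chr11:96194316-96368256, those of Hoxc chr15:102921103-103036852 and those of Hoxd chr2:74668310-74765142, all on the plus strand. The clusters also hold microRNA genes, whose mature forms in RefSeq (GRCm38.p6) are printed because the same seed occurs in more than one Hox cluster and reads at the Mir10a locus are given below. Capitals mark the seed, bases 2 to 8 from the 5′ end. Mir10a lies in Hoxb at chr11:96317186-96317208 and Mir10b in Hoxd at chr2:74726074-74726096. Mir196a-1 lies in Hoxb at chr11:96265187-96265208 and Mir196b in Hoxa at chr6:52230129-52230150.
miR-10a-5p: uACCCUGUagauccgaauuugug
miR-10b-5p: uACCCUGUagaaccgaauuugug
miR-196a-5p: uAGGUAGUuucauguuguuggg
miR-196b-5p: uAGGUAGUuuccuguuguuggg
The miR-10 pair shares its seed and differs by U12A from miR-10a to miR-10b. The miR-196 pair shares another seed and differs by A12C from miR-196a to miR-196b. Mature microRNAs carry no polyA tail and were not measured in these libraries.

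Of the 38 genes, 22 had a promoter window in the RefSeq table (24 windows). The 250 bases before the start are printed for 4 genes that stand for the patterns in the values: Hoxb4 and Hoxb8 from the cluster that set EHE6 apart, Hoxd8 from the cluster read in every library, and Hoxc4 from the cluster with almost no reads. Capitals mark exact matches on either strand to 5 motifs. CCAAT is named for its letters, the TATA box was searched as TATAAA, and the GC box, a site of Sp-type factors, as GGGCGG. A repeat unit bound by retinoic acid receptors was searched as AGGTCA, and a site for Pbx with Hox proteins as TGATTNAT. None of the matches overlap in the printed windows. The windows are at chr11:96318017-96318266 (Hoxb4), chr11:96281655-96281904 (Hoxb8), chr2:74704365-74704614 (Hoxd8) and chr15:103034145-103034394 (Hoxc4), all on the plus strand.
Hoxb4: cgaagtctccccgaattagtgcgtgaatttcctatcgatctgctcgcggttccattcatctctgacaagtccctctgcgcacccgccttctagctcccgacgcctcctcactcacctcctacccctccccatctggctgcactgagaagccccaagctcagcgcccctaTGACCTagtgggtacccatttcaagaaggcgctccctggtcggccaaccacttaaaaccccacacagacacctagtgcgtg
Hoxb8: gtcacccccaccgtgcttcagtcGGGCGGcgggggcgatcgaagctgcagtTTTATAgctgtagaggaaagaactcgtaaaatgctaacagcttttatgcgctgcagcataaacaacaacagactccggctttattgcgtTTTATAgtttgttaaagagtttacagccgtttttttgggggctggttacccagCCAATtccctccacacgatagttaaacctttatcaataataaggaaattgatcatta
Hoxd8: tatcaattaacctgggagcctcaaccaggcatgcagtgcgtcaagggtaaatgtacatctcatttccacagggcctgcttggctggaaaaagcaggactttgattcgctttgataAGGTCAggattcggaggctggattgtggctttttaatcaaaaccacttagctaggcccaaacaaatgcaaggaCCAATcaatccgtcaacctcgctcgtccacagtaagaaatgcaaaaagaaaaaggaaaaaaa
Hoxc4: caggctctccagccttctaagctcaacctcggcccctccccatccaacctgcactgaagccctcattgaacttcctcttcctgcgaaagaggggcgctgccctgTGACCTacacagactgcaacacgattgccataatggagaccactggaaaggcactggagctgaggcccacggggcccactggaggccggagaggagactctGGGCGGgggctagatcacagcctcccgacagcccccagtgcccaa
The Hoxb4 window holds 1 AGGTCA match. Hoxb8 holds 2 matches to TATAAA, 1 to CCAAT and 1 to GGGCGG. The Hoxd8 window has 1 CCAAT and 1 AGGTCA match, and Hoxc4, whose gene was barely read, has 1 GGGCGG and 1 AGGTCA match. CCAAT was present in 58.3% of the 24 Hox windows and in 33.8% of all 32851 windows of that length, and AGGTCA in 25% and 14%. TATAAA was in 16.7% of Hox windows and 12.4% of all, GGGCGG in 41.7% and 32.7%, and TGATTNAT in 8.33% and 2.82%. Hox windows held a median of 12.5 CpG dinucleotides, against 6 over all windows. These matches describe the letters in the windows and nothing about binding.

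Levels are CPM, counts scaled to the TMM-corrected size of each library over the tested genes, and the mean ± SD over libraries has n = 2 for EHE26, n = 3 for EHE17 and n = 3 for EHE6. Differences are log2 fold changes ± standard error (SE) from one edgeR quasi-likelihood fit over all 8 libraries. A gene is called at a Benjamini-Hochberg adjusted p (over all tested genes) under 0.05 with a log2 fold change of 1 or more in either direction. Total counts ran from 44620965 to 96237665 per library. On the first principal component of the tested genes other than Hox genes, 4 libraries (EHE17 replicates 1 and 2, EHE6 replicates 1 and 2) lay apart from the other 4 (both EHE26 libraries, EHE17 replicate 3, EHE6 replicate 3). The first 4 had reads in 24462 to 25177 genes and the second 4 in 20066 to 20682, so EHE26 is present in the second set alone. All 12 endothelial marker genes had reads in every library. Their summed level was 6200 and 4851 CPM in EHE26, 8013 to 13910 CPM in EHE17, and 13640, 15350 and 3339 CPM in EHE6. The members were not alike. Pecam1 had 1179 to 1675 CPM over all libraries. Cldn5 had 7.95 and 0.526 CPM in EHE26, 279 to 770 CPM in EHE17, and 403, 287 and 1.05 CPM in EHE6. In EHE26 against EHE6, 0 of the 12 had a positive log2 value (median -1.44). Summed markers of kidney epithelium, an organ whose ducts use Hox genes, were at 0.0368 and 0 CPM in EHE26, 43.4, 12.5 and 0.140 CPM in EHE17, and 11.9, 54.0 and 0.231 CPM in EHE6. In the second set they were thus close to 0, with 6 to 8 of the 8 genes unread. Summed fibroblast markers ranged from 276.5 to 1803 CPM. The highest of these sums, in EHE17 replicate 3, was nearly all Thy1 (1767 CPM). The lowest, in EHE6 replicate 3, was mostly Pdgfra, at 252.2 CPM against 3.87 and 5.21 CPM in EHE6 replicates 1 and 2. Summed epithelial markers ranged from 1.445 to 104.7 CPM. The highest, in EHE6 replicate 3, was mostly Krt18 (89.2 CPM), with Epcam, Cdh1 and Krt5 unread. Summed markers of smooth muscle and pericytes ranged from 7.95 to 672.8 CPM and those of leukocytes from 18.2 to 68.3 CPM. In EHE6 replicates 1, 2 and 3, the pericyte gene Rgs5 had 8.23, 9.92 and 183.4 CPM. The smooth muscle gene Acta2 went the other way, with 659.3, 267.8 and 15.1 CPM. Of these lists 1 gene was called, the pericyte gene Cspg4, higher by log2 6.08 ± 0.95 in EHE26 than in EHE17 (adjusted p = 0.0323, edgeR; 0.0515 to 0.16 without EHE17 replicate 1, 2 or 3, EHE26 replicate 1 or 2, or EHE6 replicate 2). The part of other cell types in the results was not tested, and in bulk RNA fewer cells of a type and less RNA per cell cannot be told apart.

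The 4 clusters took different places in the lines. Summed over its genes, Hoxb had 126 and 124 CPM in EHE26 and 82.4, 81.8 and 98.7 CPM in EHE17, but 5.02, 3.36 and 1.09 CPM in EHE6. Hoxd was read in all 8 libraries, with 147 and 121 CPM in EHE26, 116.5, 149 and 108 CPM in EHE17, and 59.1, 63.3 and 178 CPM in EHE6. Hoxd transcripts made up 43.6% and 40.2% of all Hox CPM in EHE26, 41.25% to 56.8% in EHE17 and 85.9% to 91.7% in EHE6. Hoxa had 63.3 and 55.0 CPM in EHE26, 30.9, 31.3 and 54.9 CPM in EHE17, and 0.350, 2.06 and 27.7 CPM in EHE6, so EHE6 replicate 3 stood apart from the other EHE6 libraries. Hoxc reached no more than 0.534 CPM in any library.

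**Figure D1:**
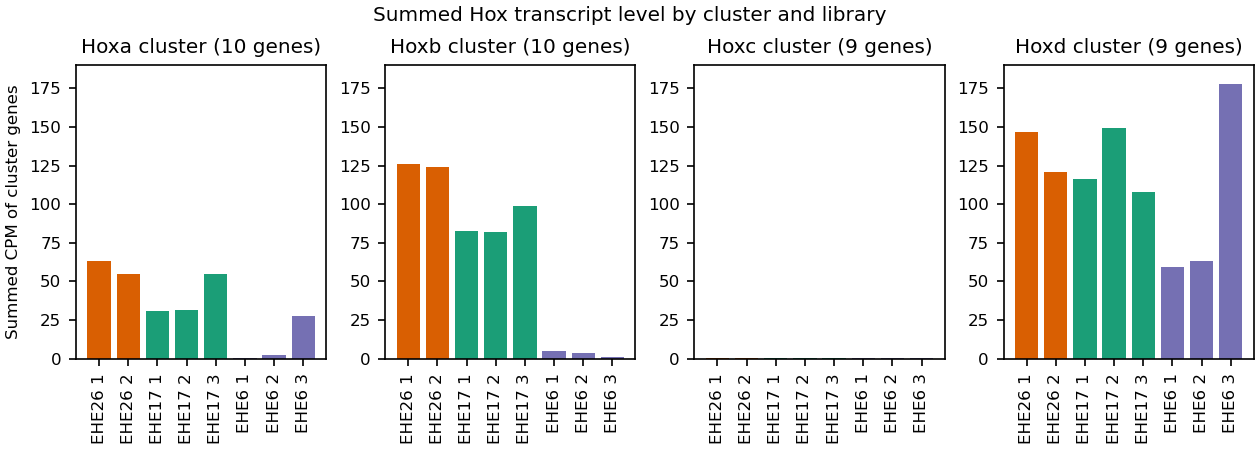
Summed CPM of the member genes of each Hox cluster in each of the 8 libraries, 1 bar per library with EHE26 left, then EHE17, then EHE6. The Hoxb bars of EHE6 (1.09 to 5.02 CPM) are far under those of EHE26 and EHE17 (81.8 to 126 CPM), the Hoxa bar of EHE6 replicate 3 rises over the other EHE6 bars, and Hoxc is at or under 0.534 CPM throughout.

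Across paralogue groups the transcripts sat in the middle of the clusters. The summed mean level of group 7 was 85.9 CPM in EHE26, 58.0 CPM in EHE17 and 3.53 CPM in EHE6, and that of group 8 was 89.7, 66.3 and 61.95 CPM in the same order of lines. Group 9 followed with 51.05 CPM in EHE26, 50.9 CPM in EHE17 and 27.3 CPM in EHE6. Group 10 had 17.5 CPM in EHE26, 16.9 CPM in EHE17 and 8.86 CPM in EHE6, nearly all of it from Hoxd10. Groups 1, 2, 11, 12 and 13 each summed to less than 1 CPM in every line. The ends of the clusters were thus almost unread while groups 3 to 10 carried the signal, and where Hoxa and Hoxb were low, as in EHE6 replicates 1 and 2, what remained was largely groups 8 to 10 of Hoxd.

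**Figure D2:**
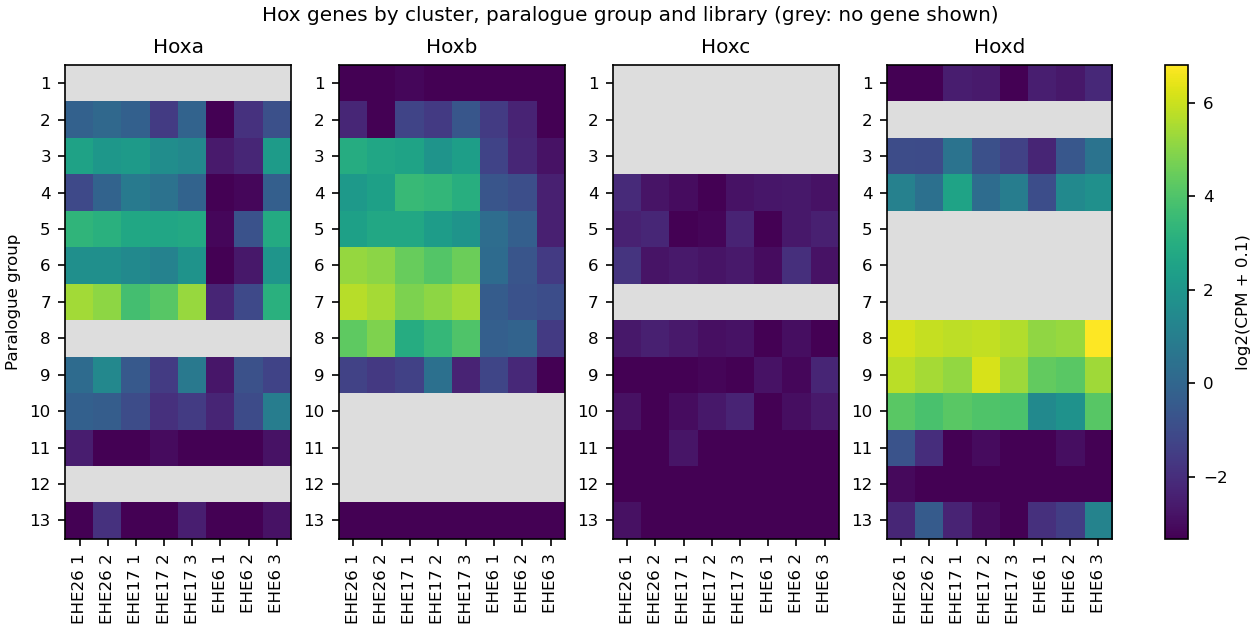
Level of each Hox gene as log2(CPM + 0.1), with a panel for each cluster, paralogue groups 1 to 13 down the page and the 8 libraries across it; grey cells hold no gene shown. The bright block in rows 3 to 8 of Hoxb is present in both EHE26 and all 3 EHE17 libraries and is dark in EHE6, the bright Hoxd block in rows 8 to 10 runs across all libraries, and Hoxc is dark throughout.

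By the rule for named genes, 11 genes were called in a comparison or averaged at least 5 CPM in a line: Hoxa5, Hoxa7, Hoxb3 to Hoxb8, Hoxd8, Hoxd9 and Hoxd10. Per kilobase of exon, Hoxb7 had the highest mean in EHE26, at 31.1 CPM per kb, followed by Hoxd8 (23.8) and Hoxd9 (22.9). In EHE17 Hoxd9 (23.2 CPM per kb) and Hoxb7 (22.45) led, with Hoxd8 at 19.96, and the gaps between these 3 were smaller than the SD of Hoxd9 between libraries. In EHE26 the gap between Hoxd8 and Hoxd9 was likewise within their SDs. In EHE6 Hoxd8 led with 22.4 CPM per kb, followed by Hoxd9 (12.55) and Hoxd10 (4.43), while Hoxb7 had 0.340.

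**Figure D3:**
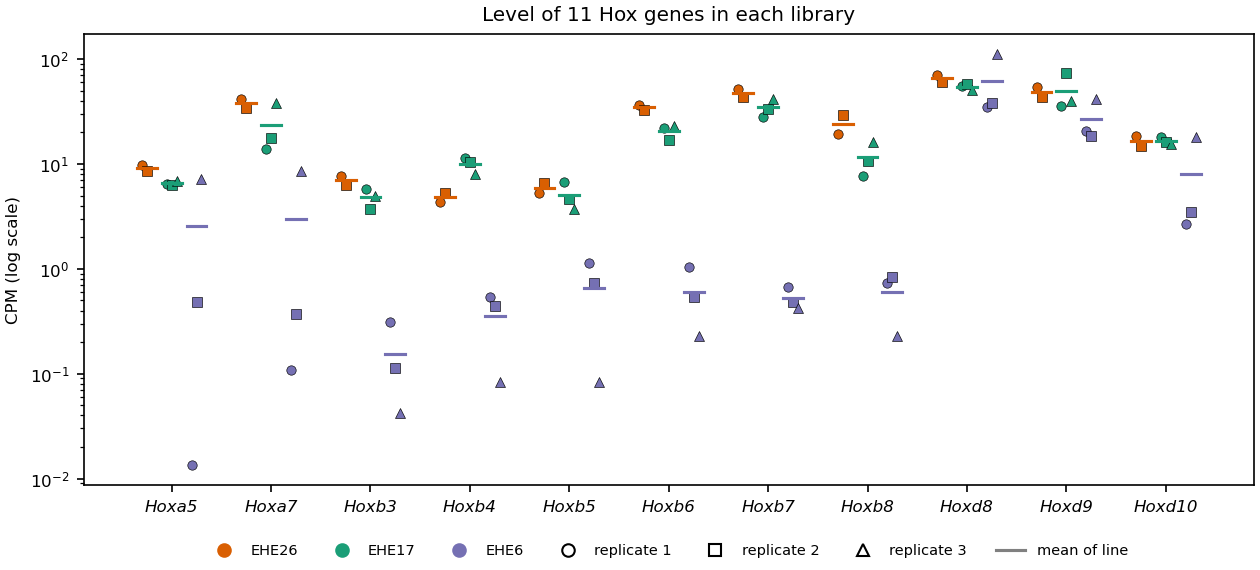
Level of the 11 named Hox genes in CPM on a log scale, 1 point per library, with EHE26 left of EHE17 and EHE17 left of EHE6 within each gene. For Hoxb3 to Hoxb8 every EHE6 point lies under every point of EHE26 and EHE17, and for Hoxa5, Hoxa7 and Hoxd10 the EHE6 points spread widely, with replicate 3 at the top.

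The Hoxb genes in the middle of the cluster separated EHE6 from both other lines. Hoxb7 (chr11:96286623-96290162, 1544 bases of exon), a gene of group 7 that acts in the patterning of the trunk skeleton, had 52.4 and 43.7 CPM in EHE26, 28.3, 33.8 and 41.95 CPM in EHE17, and 0.674, 0.480 and 0.420 CPM in EHE6. All 5 libraries of EHE26 and EHE17 were above every EHE6 library. The mean was 48.0 ± 6.16 CPM in EHE26, 34.7 ± 6.88 CPM in EHE17 and 0.525 ± 0.132 CPM in EHE6. Against EHE6, Hoxb7 was higher by log2 6.51 ± 0.36 in EHE26 (adjusted p = 0.000743, 95% interval 5.69 to 7.32) and by 6.03 ± 0.34 in EHE17 (adjusted p = 0.00191, 95% interval 5.25 to 6.82), edgeR. As ratios of means these are 91.6-fold and 66.1-fold.

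Hoxb6 (chr11:96292476-96301569) is the neighbour of Hoxb7 and another trunk patterning gene. It had 36.8 and 33.0 CPM in EHE26, 22.1, 17.0 and 23.2 CPM in EHE17, and 1.05, 0.536 and 0.231 CPM in EHE6. The lines again did not overlap between EHE6 and the others. Its edgeR log2 fold change was 5.83 ± 0.60 for EHE26 against EHE6 (adjusted p = 0.00456) and 5.08 ± 0.56 for EHE17 against EHE6 (adjusted p = 0.0297). The call in EHE17 was lost without EHE17 replicate 1, 2 or 3, without EHE26 replicate 1 or 2 and without EHE6 replicate 2, with an adjusted p of 0.113, 0.0957, 0.0561, 0.0848, 0.0802 and 0.198 in edgeR. With the replicate block in EHE17 and EHE6 alone it was 5.27 with an adjusted p of 0.0508. The log2 difference stayed between 4.62 and 6.63 over the 17 alternatives.

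Hoxb8, next to Hoxb7 on the other side and known from mouse work for its action in myeloid cells and in the spinal cord, had 19.5 and 29.1 CPM in EHE26, 7.72, 10.7 and 16.2 CPM in EHE17, and 0.727, 0.833 and 0.231 CPM in EHE6. Every library of EHE26 and EHE17 was above every EHE6 library. The gene was called in EHE26 against EHE6 (log2 5.33 ± 0.62, adjusted p = 0.00741, edgeR), and without EHE6 replicate 1 the adjusted p was 0.0523. In EHE17 against EHE6 the log2 value was 4.26 ± 0.58 and missed the threshold (adjusted p = 0.0512).

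Hoxb3 and Hoxb4, from the front part of the cluster and known in mouse haematopoietic stem cells, lay lower, with EHE6 again the lowest line. Hoxb3 had 7.71 and 6.25 CPM in EHE26, 5.72, 3.69 and 4.996 CPM in EHE17, and 0.310, 0.113 and 0.0420 CPM in EHE6. Hoxb4 had 4.305 and 5.31 CPM in EHE26, 11.3, 10.5 and 8.005 CPM in EHE17, and 0.539, 0.4375 and 0.0840 CPM in EHE6. Neither gene's EHE6 libraries overlapped those of the other lines, and Hoxb4 was the one named Hoxb gene whose EHE17 libraries were all above the EHE26 libraries. Both were called in EHE26 against EHE6, Hoxb3 at log2 5.45 ± 0.78 (adjusted p = 0.0191) and Hoxb4 at 3.74 ± 0.68 (adjusted p = 0.0481), edgeR.

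These 2 calls depended on single libraries and on the fit. The Hoxb3 call in edgeR was lost without EHE26 replicate 1 (adjusted p = 0.106), EHE26 replicate 2 (0.0769) or EHE6 replicate 2 (0.105). The Hoxb4 call was kept in 1 of the 8 fits that leave out a library, that without EHE6 replicate 3 (adjusted p = 0.006), and in the other 7 the adjusted p ran up to 0.225, with the log2 value from 3.61 to 4.16. It was also lost with RLE scaling (3.72, adjusted p = 0.0505), and both calls with only EHE26 and EHE6 in the fit (adjusted p = 0.0858 for Hoxb3 and 0.179 for Hoxb4). In EHE17 against EHE6 the log2 value was 4.91 ± 0.74 for Hoxb3 (adjusted p = 0.073) and 4.79 ± 0.69 for Hoxb4 (adjusted p = 0.0626), and with the replicate block over all lines Hoxb4 was called at 5.03 (adjusted p = 0.0453), but not with the block in EHE17 and EHE6 alone (5.06, adjusted p = 0.0834). Of the exon bases of Hoxb3, 52.9% overlap Hoxb3os on the opposite strand, and the strand setting of the counts is not given in the sources used here, so its reads cannot be told from those of that gene. Hoxb4, Hoxb6, Hoxb7 and Hoxb8 share 0% of their exon bases with another gene.

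Hoxb5, which acts in the gut nervous system and marks haematopoietic stem cells in mice, had 5.28 and 6.58 CPM in EHE26, 6.67, 4.68 and 3.71 CPM in EHE17, and 1.145, 0.734 and 0.0840 CPM in EHE6. The EHE6 libraries were again the lowest, by less than for the genes around it. The log2 value was 3.17 ± 0.87 for EHE26 against EHE6 (adjusted p = 0.166) and 2.93 ± 0.82 for EHE17 against EHE6 (adjusted p = 0.406), neither past the threshold in edgeR.

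The ends of Hoxb were low in every library. Hoxb2 reached 0.562 CPM and Hoxb9 1.24 CPM at most, both in an EHE17 library, and neither passed the test in any comparison. Hoxb1 had 1 read in all 8 libraries together. Hoxb13 had none, which allows a level of up to 0.00584 CPM over all libraries (3 counts, counting error only). The block of Hoxb genes that was read in EHE26 and EHE17 therefore ran from Hoxb3 to Hoxb8.

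Within each set of libraries the Hoxb difference had the same direction. Over replicates 1 and 2 the level in EHE17 was 53.8 times that in EHE6 for Hoxb7, 24.6 times for Hoxb6 and 11.8 times for Hoxb8. Over replicate 3 it was 99.8 times for Hoxb7, 100.4 times for Hoxb6 and 70.0 times for Hoxb8. With the set as a term, edgeR called 5 Hox genes in EHE26 against EHE6 and 5 in EHE17 against EHE6. Set beside the kidney marker sums given above, Hoxb7 was at 52.4 and 43.7 CPM in the EHE26 libraries with sums of 0.0368 and 0 CPM. In EHE17 it was at 28.3, 33.8 and 41.95 CPM with sums of 43.4, 12.5 and 0.140 CPM, and in EHE6 at 0.674, 0.480 and 0.420 CPM with sums of 11.9, 54.0 and 0.231 CPM.

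Hoxa divided the EHE6 libraries themselves. Hoxa7, a paralogue of Hoxb7, had 41.65 and 33.99 CPM in EHE26, 13.8, 17.8 and 38.3 CPM in EHE17, and 0.108, 0.367 and 8.55 CPM in EHE6. Its EHE6 libraries were all below those of both other lines, but replicate 3 was far above the other 2. The log2 value was 3.66 ± 1.46 for EHE26 against EHE6 (adjusted p = 0.298) and 2.96 ± 1.35 for EHE17 against EHE6 (adjusted p = 0.754), edgeR. Without EHE6 replicate 3 it was 7.32 (adjusted p = 0.00319) and 6.63 (adjusted p = 0.0321). That fit leaves EHE6 in the first set of libraries, while EHE26 is in the second, so their line and set cannot be told apart. Within the second set, the EHE26 mean was 4.42 times the level of EHE6 replicate 3. Over all libraries, EHE26 against EHE6 was called by DESeq2 (3.64, adjusted p = 0.0479) and by edgeR with the replicate block (6.57, adjusted p = 0.0223). The block matches EHE26 replicates 1 and 2 with EHE6 replicates 1 and 2, which are in the other set of libraries. Departures of these same-numbered libraries from their line means had correlations of 0.18 and -0.1. Line and set are thus mixed in the value from the block. Hoxaas3, on the opposite strand, overlaps 20.4% of the exon bases of Hoxa7 and had at most 1.03 CPM.

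Hoxa5, a regulator of lung and trunk development that is also known in resting endothelium, had 9.77 and 8.53 CPM in EHE26, 6.44, 6.28 and 6.90 CPM in EHE17, and 0.0135, 0.480 and 7.19 CPM in EHE6. EHE6 replicate 3 was at the level of the EHE17 libraries and the other 2 EHE6 libraries were far under it. The mean was 9.15 ± 0.875 CPM in EHE26, 6.54 ± 0.325 CPM in EHE17 and 2.56 ± 4.01 CPM in EHE6. The log2 value was 1.84 ± 1.52 for EHE26 against EHE6 (adjusted p = 0.601) and 1.36 ± 1.39 for EHE17 against EHE6 (adjusted p = 1.0) in edgeR. Without EHE6 replicate 3 the first of these was called, at log2 5.22 (adjusted p = 0.0338). That fit again has EHE6 and EHE26 in different sets of libraries, and in the second set alone the value was 0.35.

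Hoxa3 and Hoxa6 were lower and showed the same split in EHE6. Hoxa3 had 5.56 and 4.01 CPM in EHE26, 4.46, 3.01 and 2.57 CPM in EHE17, and 0.0674, 0.113 and 4.66 CPM in EHE6. Hoxa6 had 3.24 and 3.22 CPM in EHE26, 2.73, 2.16 and 3.55 CPM in EHE17, and 0, 0.0565 and 3.845 CPM in EHE6. Of the 7 Hoxa genes with enough reads for a ratio, 7 had a higher level in EHE6 replicate 3 than in the mean of EHE6 replicates 1 and 2 (median log2 ratio 4.86, lowest 0.28 for Hoxa9, whose replicate 2 was above replicate 3). For Hoxb 5 of 5 genes were lower there (median log2 ratio -1.78), and for Hoxd 7 of 7 were higher (median log2 ratio 1.61). In EHE17, replicate 3 against replicates 1 and 2 gave 5 higher and 3 lower for Hoxa (median log2 ratio 0.33), 5 higher and 3 lower for Hoxb (0.17) and 5 of 5 lower for Hoxd (-0.43). These ratios compare single libraries and have no test.

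At the posterior end of the cluster, Hoxa9, a leukaemia-associated gene of group 9, had 1.07 and 2.57 CPM in EHE26, 0.244 to 1.605 CPM in EHE17, and 0.0539 to 0.466 CPM in EHE6. Hoxa10, its neighbour in group 10, had at most 1.87 CPM, in EHE6 replicate 3. Hoxa2 reached 0.987 CPM at most, in EHE26 replicate 2, and Hoxa4 reached 1.73 CPM in EHE17 replicate 1. Hoxa11, a gene of the forelimb and uterus, and Hoxa13, a gene of the distal limb and hindgut, had 8 reads or fewer in each library and were not tested. No Hoxa gene was called in any comparison by the edgeR fit with the line as the only term.

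Hoxd was the cluster that EHE6 shared with the others. Hoxd8 had 70.3 and 60.4 CPM in EHE26, 55.6, 58.3 and 50.4 CPM in EHE17, and 35.05, 37.75 and 111.2 CPM in EHE6. The EHE6 libraries lay on both sides of those of the other lines. The log2 value was 0.09 ± 0.49 for EHE26 against EHE6 (95% interval -1.03 to 1.22, adjusted p = 0.956) and -0.16 ± 0.44 for EHE17 against EHE6 (95% interval -1.17 to 0.84, adjusted p = 1.0), edgeR. Without EHE6 replicate 3 they were 0.85 and 0.6, the second with its sign changed, and among the 4 libraries of the second set the first was -0.77.

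Hoxd9, a gene of group 9 that works in limb and lumbar patterning, had 54.75 and 43.2 CPM in EHE26, 35.4, 73.0 and 40.1 CPM in EHE17, and 20.55, 18.4 and 41.4 CPM in EHE6. All EHE6 libraries were below those of EHE26, and EHE6 replicate 3 overlapped those of EHE17. Its log2 value was 0.87 ± 0.45 for EHE26 against EHE6 (adjusted p = 0.37) and 0.89 ± 0.41 for EHE17 against EHE6 (adjusted p = 0.755), edgeR. Hoxd10, reported to keep endothelium in a resting state, had 18.7 and 14.8 CPM in EHE26, 18.25, 16.1 and 15.4 CPM in EHE17, and 2.69, 3.46 and 17.96 CPM in EHE6. The low pair were EHE6 replicates 1 and 2, and replicate 3 was level with EHE26 and EHE17. Its log2 value was 1.06 ± 0.74 for EHE26 against EHE6 (adjusted p = 0.527) and 1.05 ± 0.68 for EHE17 against EHE6 (adjusted p = 0.924). Without EHE6 replicate 3 it was called in both in edgeR, at 2.45 in each (adjusted p = 0.0068 and 0.0373). That fit leaves EHE6 in the first set of libraries, while EHE26 is in the second. Line and set cannot be told apart there for EHE26 against EHE6, which was -0.1 in the second set alone.

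The remaining Hoxd genes were low. Hoxd4 reached 5.74 CPM in EHE17 replicate 1, the highest value of any gene outside the 11 named, and Hoxd3 reached 1.37 CPM in the same library. Of the exon bases of Hoxd4 52.3%, and of Hoxd3 62.8%, overlap other genes, among them each other on the same strand. How reads in shared bases were counted is not given, so the levels of these genes are uncertain. Hoxd13, the terminal gene, which shapes digits and genitalia, had 0.110 and 0.658 CPM in EHE26, 0.0994, 0.0221 and 0 CPM in EHE17, and 0.162, 0.254 and 2.23 CPM in EHE6. Its 3 EHE17 libraries were below all EHE6 libraries, with a log2 value of -4.31 ± 1.54 (adjusted p = 0.586, edgeR). It was the 1 tested Hox gene with such a split, which 4.94% of tested genes had. Hoxd11 had 27 and 7 reads in EHE26, against 2 or fewer in each library of EHE17 and EHE6, and was not tested. Hoxd12 had 1 read in all. Hoxd1 had no read in EHE26, which allows a level of up to 0.0300 CPM over the line, and 6 reads or fewer in each of the other libraries.

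Hoxc was close to unread in all lines. Its 9 genes, Hoxc4 to Hoxc6 and Hoxc8 to Hoxc13, had 140 reads together over the 8 libraries. No gene had more than 11 reads or 0.184 CPM in a library, and Hoxc6 held both maxima. Hoxc12 had no read at all, and Hoxc9 had none in EHE26. None of the 9 passed the filter on low counts, so Hoxc entered no test.

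In all, 22 of the 38 genes passed the filter, 8 of Hoxa, 8 of Hoxb, none of Hoxc and 6 of Hoxd. The other 16 had at most 27 reads in a library. A gene can pass this filter through 1 line alone, so counts over the 22 describe those genes and not the whole family. In EHE26 against EHE6, 5 of the 22 were called, all higher in EHE26 and all of Hoxb (Hoxb3, Hoxb4, Hoxb6, Hoxb7, Hoxb8), where 1.26% of 18882 tested genes were called in either direction and 1.1% as higher. In 11 of the 22 both EHE26 libraries were above all EHE6 libraries, where 16.0% of tested genes had such a split. The median log2 value was 1.45 over the 22 genes and -0.11 over all tested genes. By cluster it was 4.54 for Hoxb, 1.71 for Hoxa and -0.14 for Hoxd. The count of called Hox genes was 12 without EHE6 replicate 3, which added Hoxa3 to Hoxa7, Hoxb5 and Hoxd10. Calls rose over all genes in that fit, to 1632 from 237, and it has EHE6 and EHE26 in different sets of libraries. The Hox count was 3 without EHE6 replicate 1 or EHE6 replicate 2, where 65 and 85 genes were called in all.

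In EHE17 against EHE6, 2 of the 22 were called, Hoxb6 and Hoxb7, both higher in EHE17, where 0.143% of tested genes were called in either direction and 0.0794% as higher. In 8 of the 22 all EHE17 libraries were above all EHE6 libraries, where 7.25% of tested genes had such a split, and Hoxb3 to Hoxb8 made up 6 of those 8. The median log2 value was 1.55 over the 22 genes, against -0.03 over all tested genes, and by cluster 4.52 for Hoxb, 1.45 for Hoxa and 0.25 for Hoxd. The count of called Hox genes was 8 without EHE6 replicate 3, 2 without EHE6 replicate 1, and 1 (Hoxb7) without any single one of the other 6 libraries. This comparison and the one before it share the EHE6 libraries, so their like values are not independent. Without EHE6 replicate 3, EHE17 against EHE6 had 54 called genes in all, against 27 with it.

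In EHE26 against EHE17, none of the 22 was called by edgeR, where 1.08% of tested genes were. None had an unadjusted p under 0.05 either, a level that 16.6% of tested genes passed, and DESeq2 also called 0. For Hoxb7 the log2 value was 0.47 ± 0.30 (95% interval -0.22 to 1.16), for Hoxb6 0.75 ± 0.52 (-0.44 to 1.94) and for Hoxd8 0.26 ± 0.49 (-0.86 to 1.38), and each of these 3 intervals reaches past a log2 value of 1. The widest gaps among the named genes were 1.07 ± 0.55 for Hoxb8 (-0.2 to 2.34, adjusted p = 0.354) and -1.05 ± 0.67 for Hoxb4 (-2.6 to 0.5, adjusted p = 0.45). In 8 of the 22 both EHE26 libraries were above all EHE17 libraries and in 3 they were below, where 18.7% and 20.3% of tested genes had such splits. The median log2 value was 0.36 over the 22 genes and -0.11 over all tested genes.

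**Figure D4:**
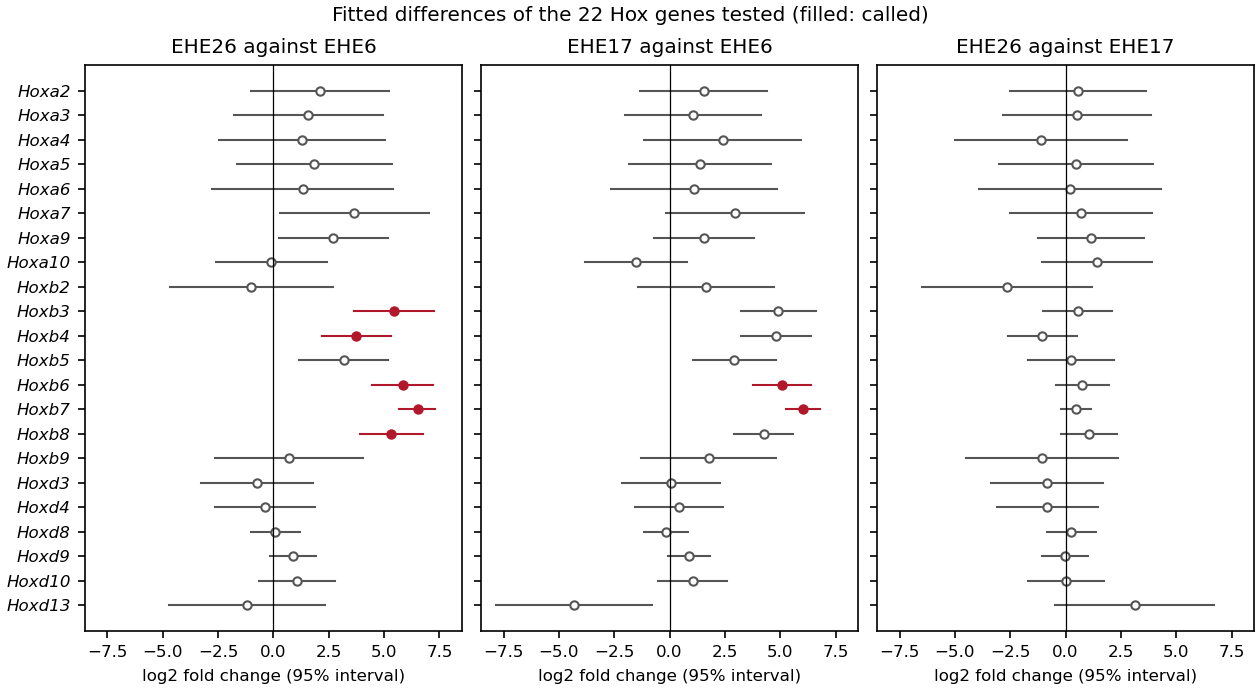
Log2 fold changes of the 22 tested Hox genes with 95% intervals, with a panel for each comparison and filled points for called genes. In the panels against EHE6 the points for Hoxb3 to Hoxb8 lie between 2.93 and 6.51 while those for Hoxd8 lie near 0, and in EHE26 against EHE17 every interval crosses 0.

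The non-coding genes of the clusters were read at low levels, and none of the 8 that passed the filter, of 17 in the table and 20 listed, was called in any comparison. Hoxb5os, an antisense gene inside Hoxb, had 64 and 83 reads in EHE26, 223, 91 and 96 in EHE17, and 4, 10 and 0 in EHE6. All EHE26 and EHE17 libraries were above the EHE6 libraries, as for the coding genes beside it. Its log2 value was 4.44 ± 1.11 for EHE26 against EHE6 (adjusted p = 0.133) and 4.78 ± 1.08 for EHE17 against EHE6 (adjusted p = 0.244), edgeR. Mir10a, the Hoxb gene of the miR-10a printed above, had 4 and 1 reads in EHE26, 18, 8 and 8 in EHE17, and 0, 1 and 0 in EHE6; these are reads on its locus in polyadenylated RNA. Hoxd3os1 had 2.43 to 2.815 CPM in EHE26, 2.09 to 2.79 CPM in EHE17 and 3.02 to 3.46 CPM in EHE6, and was thus read in EHE6 like Hoxd itself. Hotair, of Hoxc, and Hottip, of Hoxa, had no read.

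The protein-coding genes next to the clusters differed in level, and some were almost unread. Skap2, an adaptor of immune signalling beside Hoxa, had 72.0 and 78.3 CPM in EHE26, 52.9, 61.2 and 78.5 CPM in EHE17, and 46.2, 44.8 and 76.5 CPM in EHE6, with a log2 value of 0.43 ± 0.31 for EHE26 against EHE6 and 0.20 ± 0.28 for EHE17 against EHE6. Skap2 was thus at 72.0 to 78.5 CPM in the second set of libraries and at 44.8 to 61.2 CPM in the first. Replicate 3 was the highest library in EHE6 and in EHE17 alike. Skap1, a relative of Skap2 beside Hoxb, stayed at or under 0.929 CPM in all libraries. Ttll6, on the other side of Hoxb, had reads in EHE17 alone, 4 in all. At such levels neither gene can show whether the genes beside Hoxb followed it. Evx1 was unread and Evx2, beside Hoxd13, had 4 reads in EHE17 replicate 1. Calcoco1 and Smug1 around Hoxc and Mtx2 beside Hoxd had log2 values between -0.45 and 0.32 in the 3 comparisons. None of the neighbours was called.

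Genes that work with or upstream of Hox proteins were described from lists. None of the 9 tested cofactors of the TALE homeodomain class was called. Meis2, which binds DNA with Hox proteins, had 129.7 and 82.35 CPM in EHE26, 156.1, 63.7 and 172.4 CPM in EHE17, and 46.3, 47.4 and 39.8 CPM in EHE6. Each of its EHE26 and EHE17 libraries was above the EHE6 libraries, with log2 values of 1.25 ± 0.42 for EHE26 against EHE6 (adjusted p = 0.24) and 1.56 ± 0.39 for EHE17 against EHE6 (adjusted p = 0.31), edgeR. Pbx2 ran from 47.1 to 67.8 CPM, and the libraries of the lines overlapped. Pknox1 had 24.2 and 27.6 CPM in EHE26, 33.2, 34.1 and 34.4 CPM in EHE17, and 28.9, 29.4 and 29.0 CPM in EHE6. Its lines did not overlap, but the differences were small. The log2 value was -0.17 ± 0.22 for EHE26 against EHE6 and 0.22 ± 0.19 for EHE17 against EHE6.

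The Polycomb and Trithorax lists showed no called member in any comparison, among 11 tested genes of Polycomb complex 2, 20 of Polycomb complex 1 and 13 of the Trithorax and H3K27 demethylase list. The median log2 value of Polycomb complex 2 was 0.09 for EHE26 against EHE6, -0.21 for EHE17 against EHE6 and 0.27 for EHE26 against EHE17. Suz12, a core subunit of it, had 87.1 and 102.1 CPM in EHE26, 72.3, 28.3 and 117.7 CPM in EHE17, and 55.6, 65.4 and 124.6 CPM in EHE6. The libraries of the 3 lines overlapped. Kmt2a, the methyltransferase that keeps Hox genes active in mouse embryos, had 80.4 and 95.2 CPM in EHE26, 58.1 to 118.5 CPM in EHE17 and 80.8 to 98.1 CPM in EHE6.

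Retinoic acid is a classical inducer of Hox genes from the front of the clusters. None of the 15 tested genes of its pathway was called in EHE26 against EHE6 or in EHE17 against EHE6. The receptor gene Rarg had 114.3 and 136.1 CPM in EHE26, 36.7 to 50.8 CPM in EHE17, and 52.7, 49.4 and 140.3 CPM in EHE6, and was not called. No gene of the ParaHox group, the sister family of the Hox genes, had enough reads to be tested (0 of 6).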

How the data were processed

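The deposited values are raw read counts per Ensembl gene, 1 column per library, and the file of each library held the same counts as its column of the series table (8 of 8). Reads were aligned with HISAT2 to mm10, per the submitters' processing notes. The counting tool, its annotation and its strand setting are not given in the sources used here. Symbols and positions came from GENCODE M21 (55141 of 55401 identifiers). Counts were filtered with filterByExpr by line (18882 genes tested), scaled with TMM and fitted with edgeR 4.0.16 in R 4.3.3 with the line as the only term. The alternatives were DESeq2 1.42.0, RLE scaling, no filter, other sets of libraries, other terms and leaving out each library. SEs were taken as |log2 fold change|/√F. Floors are 3 counts and cover counting error only. The pipeline was tested on simulated data. Total counts were 44620965 to 96237665 per library.

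Named Hox genes are those called in a comparison or with a mean of at least 5 CPM in a line. From each list every called member is named, or else up to 4 with the highest mean. The members and lists were chosen with earlier results of these data known. Hoxa3, Hoxa6 and other low genes were named after their values were seen. 1 Hox gene and some genes of the lists are not reported here. Across genes, the departures of same-numbered libraries of EHE17 and EHE6 from their line means had correlations of 0.13, 0.18 and 0.57, all over the limit of 0.1 set for treating the numbers as pairs. Differently numbered libraries reached 0.62.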

Additional observations from a re-analysis of the deposited data

How the results depend on the processing

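Hoxb7 was called in all 17 alternatives for EHE17 against EHE6 (log2 5.75 to 6.63) and in all 15 for EHE26 against EHE6 (6.37 to 6.83), Hoxb6 in 9 of 17 and 15 of 15. For EHE26 against EHE17 every alternative called 0 Hox genes. The cause of the changes below was not tested. Depth limits the 16 untested Hox genes, which had 27 reads or fewer in each library.

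In the second set alone, EHE17 replicate 3 and EHE6 replicate 3 are the only libraries of their lines. Only log2 values of that fit are given here, and the counts of alternatives above include it. Hox genes called in EHE17 against EHE6 (2) numbered 7 with DESeq2 (6 higher, 1 lower) and 8 in the first set alone. They numbered 5 with the set as a term, 5 with no filter and 1 with only these lines in the fit. With these lines and the replicate block there was 1, and with the block over all lines there were 3. Those in EHE26 against EHE6 (5) numbered 3 with only these lines in the fit, 4 with RLE scaling, 7 with DESeq2 and 7 with the block. That block matches EHE26 libraries with EHE6 libraries of the other set. Leaving out 1 library gave 1 to 8 and 3 to 12. All genes called in EHE17 against EHE6 (27) numbered 393 with DESeq2, 97 in the first set, 473 in the second, 102 with the set term, 142 with no filter and 7 with only these lines; in EHE26 against EHE6 (237) 1575 with DESeq2, 356 with the set term, 547 with no filter, 126 with only these lines and 1459 with the block; and in EHE26 against EHE17 (203) 1713, 319, 745, 764 and 1860 in the same order, and 612 in the second set. Leaving out 1 library gave 1 to 54, 65 to 1632 and 2 to 1415.

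The log2 values that changed sign were none of the calls of the fit with the line as the only term. In EHE17 against EHE6, the second set alone gave -0.06 for Hoxa5, -0.23 for Hoxd10 and -0.05 for Hoxd9, and Hoxd8 was 0.66 in the first set alone, 0.07 with the set term and 0.07 with the replicate block in either form (-0.44 to 0.6 leaving out 1 library). In EHE26 against EHE6, the second set alone gave -0.1 for Hoxd10 and -0.77 for Hoxd8, and Hoxd8 was -0.29 with the set term (-0.19 to 0.85 leaving out 1 library). In EHE26 against EHE17, the set term gave -2.05 for Hoxa5, -1.82 for Hoxa7, -1.08 for Hoxd10 and -0.35 for Hoxd8, the second set alone -0.01 for Hoxa7 and 0.29 for Hoxd9, the block -0.31 for Hoxb5 and 0.13 for Hoxd9, and no filter -0.0 for Hoxd10; leaving out 1 library gave -0.17 to 0.18 for Hoxd10 and -0.21 to 0.36 for Hoxd9.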
